A study of Mus musculus with 3 samples.

Results

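Expression of 10 genes of the heat shock chaperone system was followed in single cells of mouse dorsal skin: *Hspa1a*, *Hspa1b*, *Dnajb1*, *Hsph1*, *Hspb1*, *Hsp90aa1*, *Hspa8*, *Hsp90ab1*, *Hspe1* and *Hspa5*. They were taken by name from the 19927 genes in the count matrices, by a rule that reads no measured value, although this set of genes was proposed with earlier results of these data known. All 10 had counts in all 3 libraries, and all 10 were among the 3919 genes with at least 50 counts per 1000000 counts of the library (CPM) in at least 1 library. The study compared epidermal and hair follicle cells of P18 mice (postnatal day 18) with a floxed vitamin D receptor gene, *Vdr* flox/flox, as controls with those of *Vdr* flox/flox; Krt14cre mice (*Vdr* cKO). There were 2 control libraries and 1 *Vdr* cKO library, and the skin of 3 male mice was pooled in each. Both genotypes carry the floxed allele, and the Cre recombinase is driven by the *Krt14* promoter. The study describes the knockout as specific to epidermal cells. Which cells of the library carried the deletion was not measured here, and a low *Krt14* count does not place a cell outside it. The cells were released with warm trypsin and captured in droplets, and no undissociated skin was analysed here.

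The 3 libraries held 1480 cells (control 1), 1658 cells (control 2) and 2622 cells (*Vdr* cKO-labelled library), with 18802408, 28690129 and 30954897 counts. A cell had a median of 4190, 4492.5 and 4055 counts from a median of 377, 502 and 688.5 detected genes. Of the kept barcodes, 20, 21 and 18 also occurred in another library. *Vdr* stood at 40.7, 35.9 and 80.8 CPM and was thus not lower in the *Vdr* cKO-labelled library. A count for the whole gene also includes transcripts that lack the deleted exon, so this value does not check the label, and every direction below refers to a library by its label. With a single *Vdr* cKO library no test between genotypes was made, the genotype cannot be told apart from the library, and only the distance between the 2 controls shows how far libraries of like genotype lie apart.

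Heat shock proteins keep other proteins folded. Hsp70 proteins hold exposed stretches of unfolded proteins, J-domain proteins such as Dnajb1 bring substrates to Hsp70, Hsph1 helps Hsp70 release its nucleotide, and Hsp90 finishes the folding of kinases and steroid receptors. Small heat shock proteins such as Hspb1 bind unfolding proteins without using ATP, and Hspb1 is known as a protein of differentiating keratinocytes. In heat or other proteotoxic stress the factor Hsf1 binds heat shock elements, runs of the unit GAA in alternating direction, and switches on the inducible members; the constitutive members are made in all cells, and *Hspa5* follows the stress of the endoplasmic reticulum. The 6 genes *Hspa1a*, *Hspa1b*, *Dnajb1*, *Hsph1*, *Hspb1* and *Hsp90aa1* were counted as inducible, and the 4 genes *Hspa8*, *Hsp90ab1*, *Hspe1* and *Hspa5* as constitutive. This grouping is a convention and not a clean division. *Hspe1* holds a run of heat shock units, given below, and *Hspa5* answers another stress.

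The promoters of *Hspa1a*, *Hspa1b* and *Hspb1* hold the heat shock units named above and show how alike the first pair is. Promoter sequences of RefSeq on GRCm38.p6 were at hand for 7 of the 10 genes. The 250 bases before each gene start in that source were searched on both strands for a pair of heat shock units, spelled GAANNTTC or TTCNNGAA. Such a pair is in 12.8% of all 32851 promoter windows. The 250 bases of *Hspa1a* lie at chr17:34972157-34972406 and those of *Hspa1b* at chr17:34959239-34959488, both on the minus strand, and those of *Hspb1* at chr5:135887669-135887918 on the plus strand. They are given 5′ to 3′, with each pair of units in capitals.
Hspa1a promoter: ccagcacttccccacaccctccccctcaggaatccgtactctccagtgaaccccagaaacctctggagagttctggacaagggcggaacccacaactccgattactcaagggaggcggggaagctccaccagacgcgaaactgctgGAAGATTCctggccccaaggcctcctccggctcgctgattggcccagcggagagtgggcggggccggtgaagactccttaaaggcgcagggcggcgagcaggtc
Hspa1b promoter: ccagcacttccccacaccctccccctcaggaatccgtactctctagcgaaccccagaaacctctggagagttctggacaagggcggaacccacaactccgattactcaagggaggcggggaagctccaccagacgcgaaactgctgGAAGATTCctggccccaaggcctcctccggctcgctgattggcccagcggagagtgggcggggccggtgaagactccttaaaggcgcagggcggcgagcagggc
Hspb1 promoter: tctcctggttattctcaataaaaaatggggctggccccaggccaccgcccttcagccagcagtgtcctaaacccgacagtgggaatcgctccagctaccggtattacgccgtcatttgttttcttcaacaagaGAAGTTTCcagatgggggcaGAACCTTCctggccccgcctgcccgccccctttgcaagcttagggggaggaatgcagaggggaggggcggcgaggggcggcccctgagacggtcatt
*Hspa1a* and *Hspa1b* each held 1 pair at the same distance from the start, and their printed promoters were identical at 247 of 250 bases. *Hspb1* held 2 pairs.

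Shorter stretches are given for 3 further genes, because their windows overlap annotated exons, with the matching letters in capitals throughout. In *Hspe1*, 3 overlapping pairs form 1 run of 18 bases at chr1:55088059-55088076 on the plus strand, and a run of 3 units (GAANNTTCNNGAA or TTCNNGAANNTTC) occurs in 0.466% of all windows. *Hsph1* had 1 pair at chr5:149636362-149636369 on the minus strand. *Hspa5* had no pair but 1 match to the endoplasmic reticulum stress element, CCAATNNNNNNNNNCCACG or its complement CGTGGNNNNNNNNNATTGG, at chr2:34772025-34772043 on the plus strand. That element is in 0.113% of all windows. In the GENCODE M21 annotation of GRCm38, *Hsph1* starts at chr5:149636376 and *Hspa5* at chr2:34771970. The sites of *Hsph1* and *Hspa5* thus lie inside the genes as annotated there.
Hspe1 site: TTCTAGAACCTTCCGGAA
Hsph1 site: TTCTCGAA
Hspa5 site: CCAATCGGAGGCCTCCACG
For *Dnajb1* and *Hsph1*, which had 2 windows each, only the window nearest the annotated gene start was read. These letters were not in that window of *Dnajb1*, and its other window was not examined. A match describes the sequence and was not measured as a binding site.

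*Hspa1a* and *Hspa1b* are neighboring copies on chromosome 17 whose longest open reading frames are 99.6% identical where aligned, while the last 300 bases of their transcripts are 65.1% identical. How the counting shared reads between the copies was not stated, so each of the pair is reported as uncertain and their sum is given as well. In the GENCODE M21 annotation of GRCm38 the other genes lie on chromosomes 1 (*Hspe1*), 2 (*Hspa5*), 5 (*Hspb1*, *Hsph1*), 8 (*Dnajb1*), 9 (*Hspa8*), 12 (*Hsp90aa1*) and 17 (*Hsp90ab1*).

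To ask how much of the transcriptome these genes occupy, the counts of all kept cells were pooled within a library and expressed as CPM of that library. The 10 genes together took 8986 and 8778 CPM in the controls and 7639 CPM in the *Vdr* cKO-labelled library. *Hspb1* and *Hsp90ab1* held most of these counts, 79.4%, 82.5% and 80.4% of them. This is a share of counts that were not corrected for transcript length. Such sums cannot tell a change in the number of cells of a kind from a change in RNA per cell.

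**Figure D1:**
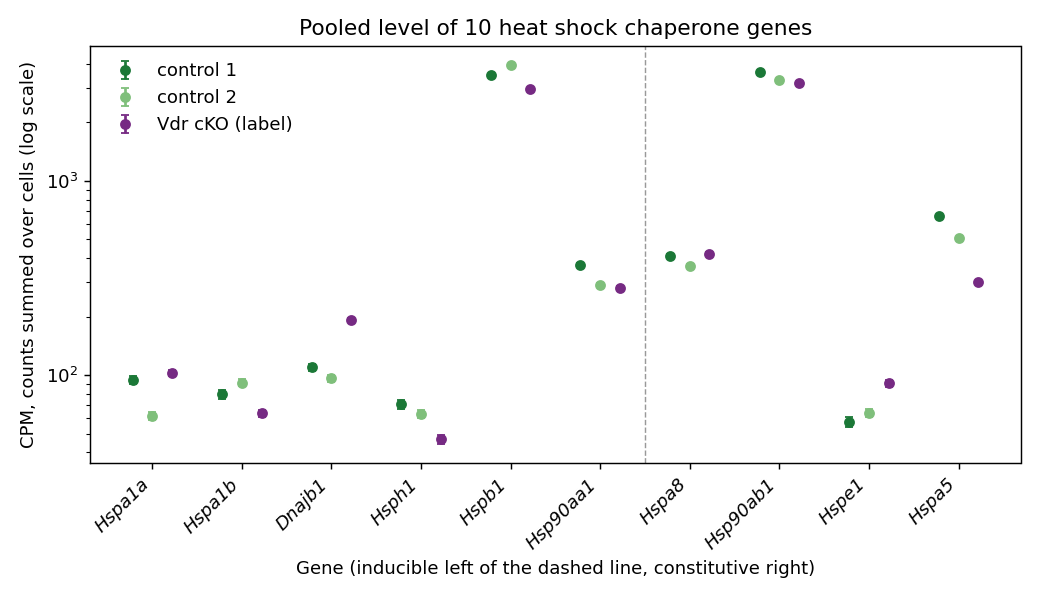
Pooled level of each gene in CPM (log axis) in the 3 libraries, with exact 95% Poisson intervals of the counts; inducible genes stand left of the dashed line and constitutive genes right of it. *Dnajb1* and *Hspe1* lie above both controls and *Hspa5* below both in the *Vdr* cKO-labelled library, while *Hspb1* and *Hsp90ab1* stand near 3000 CPM or higher in all 3.

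Among the Hsp70 genes, *Hspa1a* measured 94.8, 61.8 and 102 CPM in control 1, control 2 and the *Vdr* cKO-labelled library. The 2 controls were further apart (log2 ratio 0.61) than the labelled library was from the nearer control (0.11). *Hspa1b* measured 79.6, 91.5 and 63.6 CPM, so that the copies leaned in opposite directions, and their sum was 174, 153 and 166 CPM, with the labelled library between the controls. *Hspa8*, the constitutive cytosolic Hsp70, measured 412, 365 and 421 CPM, a log2 fold of 0.12 over the mean of the controls. Its position above both controls depended on the scaling, as it stood below their mean under TMM (trimmed mean of M-values) and median-of-ratios factors, which set libraries level on the bulk of their genes instead of on their totals.

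*Dnajb1*, the J-domain partner of Hsp70, measured 109.8 CPM (95% Poisson interval 105 to 115), 96.2 CPM (92.6 to 99.9) and 192 CPM (187 to 197). It was the gene furthest above the controls, at 1.85 times their mean, a log2 fold of 0.89 that stood at percentile 93.4 of the folds of all 3919 genes. Its log2 distance to the nearer control was 0.80, against 0.19 between the controls. *Hsph1*, the nucleotide exchange partner, measured 70.7, 63.1 and 46.7 CPM and leaned the other way. However, 72.0%, 41.3% and 33.2% of its counts came from 10 cells of each library, and without those cells its log2 fold was 0.08 in place of -0.51. *Hspa1a* likewise had 52.1%, 28.4% and 17.5% of its counts in 10 cells, *Dnajb1* 47.0%, 29.1% and 17.5%, and *Hspe1* 44.0%, 30.1% and 15.1%. Without those cells the log2 folds were 0.85 in place of 0.38 for *Hspa1a*, 1.29 for *Dnajb1* and 0.97 in place of 0.57 for *Hspe1*. Leaving out 10 cells took a larger part of the counts of each of these genes from either control than from the labelled library. This by itself raises the folds, also that of *Hsph1*, so it does not show how far they rest on few cells.

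*Hspb1*, the small heat shock protein gene, measured 3507, 3923 and 2952 CPM, a log2 fold of -0.33. Of the Hsp90 genes, the inducible *Hsp90aa1* measured 369, 291 and 282 CPM and the constitutive *Hsp90ab1* measured 3629.8, 3315 and 3189 CPM. Both stood just below the lower control, with log2 distances of -0.05 and -0.06, which is less than the 0.34 and 0.13 between the controls. As the mean of each cell's CPM, *Hsp90aa1* stood above the mean of the controls, with a log2 fold of 0.10 in place of -0.23. *Hspe1*, the co-chaperonin of mitochondria, measured 57.2 CPM (53.9 to 60.8), 63.8 CPM (60.9 to 66.8) and 90.6 CPM (87.2 to 94.0), 1.49 times the mean of the controls.

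*Hspa5*, the Hsp70 of the endoplasmic reticulum also called BiP, measured 656 CPM (645 to 668), 508 CPM (499.5 to 516) and 300.3 CPM (294 to 306). Its log2 fold of -0.95 was the lowest of the 10 genes and stood at percentile 2.55 of all genes. The log2 distance to the nearer control was -0.76, against 0.37 between the controls. These intervals cover counting error only and are too narrow where copies of 1 molecule were counted more than once.

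None of the 10 genes was over 2-fold above or below both controls. Of all 3919 genes, 197 were, or 5.03%, of which 152 were higher and 45 lower. With control 1 or control 2 in the place of the labelled library, 1.68% and 1.74% were. By any amount, 4 of the 10 genes (*Hspa1a*, *Dnajb1*, *Hspa8*, *Hspe1*) lay above both controls and 6 below both, where 38.4% and 35.9% of all genes did; under TMM or median-of-ratios factors only *Dnajb1* and *Hspe1* remained above both, where 25.8% and 24.2% of all genes did, and 48.8% and 50.8% lay below both. The median log2 fold of the 10 genes was -0.18, against 0.0017 over all genes. Under TMM and median-of-ratios factors the median of all genes moved to -0.19 and -0.22 and that of the 10 genes to -0.36 and -0.39. These factors shift all genes by about the same amount, and the share of higher genes among those over 2-fold apart moved from 77.2% to 55.4% and 50.8%.

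The inducible genes were set against the constitutive ones as the comparison closest to a stress response, with *Hspe1* and its heat shock units on the constitutive side. Inducible genes took 4231, 4527 and 3638 CPM, and constitutive genes 4755, 4251 and 4001 CPM. The median log2 fold was -0.28 for the 6 inducible and -0.0032 for the 4 constitutive genes, a difference of -0.28. This difference did not hold its sign: it was 0.08 when the CPM of single cells was averaged, 0.17 with each gene counted once per cell, and 0.023 without the 5% of cells with the most counts. Without the 10 cells with the most counts of each gene, which took a larger part of the counts from the controls, it was -0.03. Without *Hspb1* and *Hsp90aa1*, the inducible genes with the most counts, the other 4 took 355, 313 and 404 CPM. By CPM *Dnajb1* and *Hspa1a* lay above both controls and the other 4 inducible genes below both, where 38.4% and 35.9% of all genes did. For *Hspa1a* and *Hsp90aa1* the log2 distance to the nearer control, 0.11 and -0.05, was less than the 0.61 and 0.34 between the controls. For the other inducible genes it was more.

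The share of cells in which a gene was found was compared after each cell was thinned to 1000 counts, which left out 14, 61 and 60 shallower cells. Equal depth here means equal counts. Before thinning, a gene found in a cell had a mean of 22.8, 21.2 and 11.8 counts there. The same 1000 counts therefore need not hold equal numbers of molecules in the 3 libraries. *Hspb1* was found in 72.9%, 76.7% and 70.8% of cells at this depth (82.8%, 87.2% and 87.2% before thinning). *Hsp90ab1* was found in 63.2%, 66.8% and 77.8% (74.5%, 78.8% and 89.2% before). Both are thus genes of most cells, whereas the other 8 were found in a minority.

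*Hspa8* was found in 16.1%, 17.7% and 21% of cells, *Hspa5* in 17.1%, 17.3% and 12.6%, and *Hsp90aa1* in 10.8%, 11.0% and 16.4% (before thinning 27.7%, 36.6% and 43.0% for *Hspa8*, 26.7%, 35.1% and 28.6% for *Hspa5*, and 18.6%, 25.1% and 34.1% for *Hsp90aa1*). The rest were rarer. *Dnajb1* was found in 4.09%, 4.63% and 7.14% of cells, and the interval of the last, 6.18% to 8.21%, lay above those of the controls, which reached 5.24% and 5.78%. These intervals do not cover differences between libraries, and 66.6% of all genes had a share above both controls at this depth. *Hspe1* was found in 3.75%, 4.01% and 6.28% and *Hspa1a* in 3.89%, 3.32% and 5.31%. *Hspa1b* was found in 4.02%, 3.82% and 3.98% and *Hsph1* in 2.18%, 2.19% and 2.26%, with differences inside the counting intervals. Before thinning these 5 were found in 4.26% to 20.1% of cells.

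**Figure D2:**
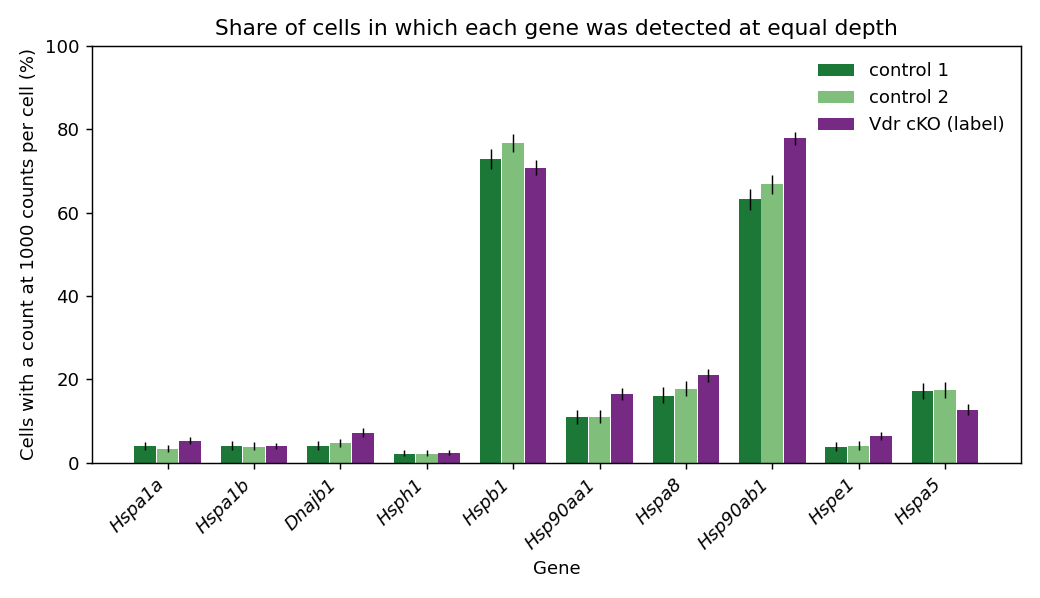
Percentage of cells with at least 1 count of each gene after thinning to 1000 counts per cell, as bars for the 3 libraries with exact (Clopper-Pearson) 95% intervals. *Hspb1* and *Hsp90ab1* exceed 60% in all 3 libraries, and the other genes stay at or below 21%.

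In the *Vdr* cKO-labelled library the share was above both controls for 7 genes and below both for 2 (*Hspb1*, *Hspa5*). This count is near the background, since 66.6% of all genes had a share above both controls at this depth and 12.4% below both. When 200 detected genes were drawn per cell instead, 4 shares were above both controls (*Hspa1a*, *Dnajb1*, *Hsp90aa1*, *Hspe1*) and 6 below both. The shares of all genes above and below both were not counted for this draw. Cells had a median of 377, 502 and 688.5 detected genes, so the draw took the smallest part of them in the labelled library. This tends to lower the shares there. *Hspb1* and *Hspa5* were below both controls in each of these, and *Hspa1a*, *Dnajb1*, *Hsp90aa1* and *Hspe1* above both. At other depths the number below both changed, to 3 at 500 counts, 1 at 2000 counts (*Hspa5*) and 0 without thinning, and *Hspb1* at 2000 counts was found in 80.9%, 84.5% and 83.6% of cells, between the controls. In the draw of genes *Hspa5* was found in 9.80%, 8.20% and 6.37% of cells and *Dnajb1* in 3.38%, 3.32% and 3.66%.

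No cell type of skin could be named that surely lacks these genes, so none served as the background of free RNA. In the 1308, 802 and 160 barcodes left out as cells, the 10 genes took 7158, 6478 and 4752 CPM, somewhat below their level in cells. *Hspb1* took 3120, 2707 and 1611 CPM there and *Hspa5* 311, 758 and 421 CPM. *Hspa1a* took 35.0, 38.1 and 0 CPM, the last from 126039 counts in all. The shares of the rare genes were not separated from free RNA.

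To compare the genes between keratinocyte layers, cells of each library were put into 3 bins by their share of *Krt14* (basal layer), *Krt10* (suprabasal layers) or *Lor* (loricrin, granular layer). CPM was computed without the counts of these 3 keratinocyte genes. The lower *Krt14* bin of the controls held the 884 and 1001 cells with no *Krt14* count. No chaperone gene was over 2-fold apart between the upper and lower bin in the same direction in all 3 libraries. Over all 3916 genes tested, 2.94% were higher and 0.689% lower by that rule for *Krt14*, 3.6% and 3.8% for *Krt10*, and 3.93% and 1.07% for *Lor*. The directions below are therefore those of smaller differences that recurred in 3 libraries.

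**Figure D3:**
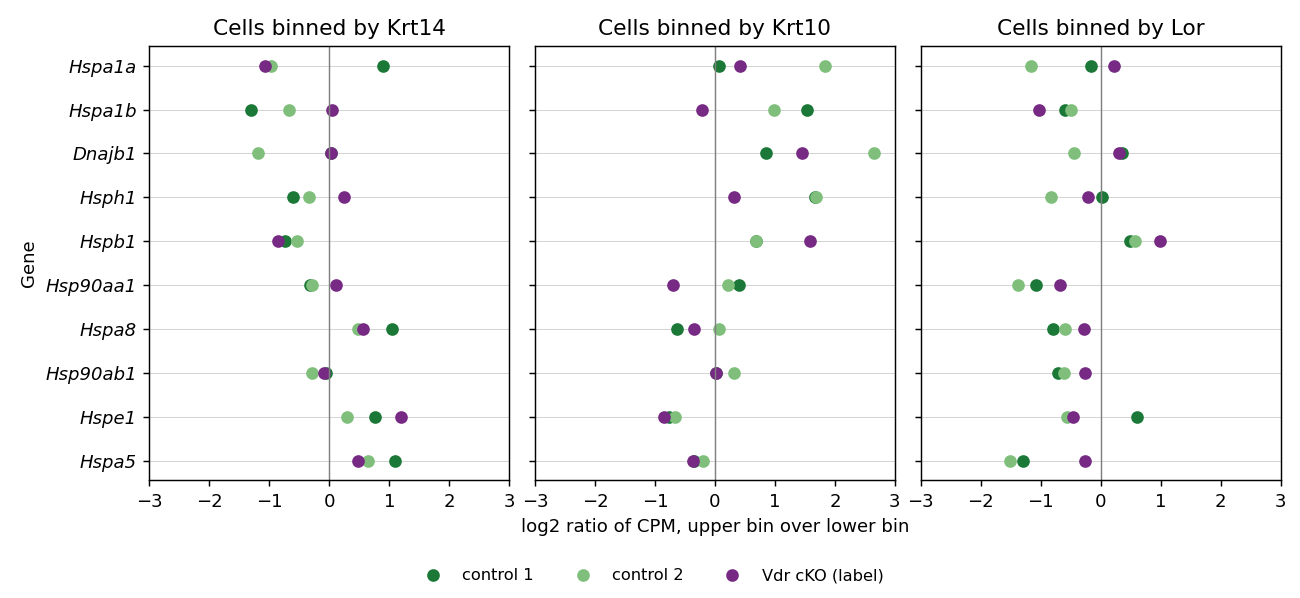
Log2 ratio of CPM in the upper over the lower bin of cells for each of the 10 genes, with 1 point for each library and a panel each for bins by *Krt14*, *Krt10* and *Lor*; 0 means equal levels. In the *Lor* panel all 3 points of *Hspb1* lie right of 0, and all 3 points of *Hsp90aa1*, *Hspa8*, *Hsp90ab1*, *Hspa5* and *Hspa1b* lie left of 0.

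Along *Lor*, *Hspb1* was the only 1 of the 10 genes higher in the upper bin in all 3 libraries. It went from 3155 CPM in the lower to 4466 in the middle and 4407 in the upper bin of control 1, from 3362 to 5140 and 4981 CPM in control 2, and from 2005 to 3442 and 3996 CPM in the *Vdr* cKO-labelled library. The rise was between the lower and the middle bin in the controls and at each bin in the labelled library, and the log2 ratios of upper over lower bin were 0.48, 0.57 and 0.99. At 1000 counts per cell, *Hspb1* was found in 66.7% of cells of the lower and 75.6% of the upper bin of control 1, in 67.5% and 85.6% in control 2, and in 57.6% and 82.1% in the labelled library.

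A set of 5 genes was lower in the upper *Lor* bin in all 3 libraries, where 35.6% of all genes were, and 1 gene was higher, where 16.2% were. *Hsp90aa1* went from 467 to 361 and 222 CPM over the lower, middle and upper bin of control 1, from 401 to 234 and 153 CPM in control 2, and from 350.0 to 309.9 and 219.5 CPM in the *Vdr* cKO-labelled library. It thus stepped down at each bin in each library. At equal depth it was found in 16.4% and 7.66% of cells of the lower and upper bin in control 1, in 17.0% and 6.99% in control 2, and in 20.7% and 12.3% in the labelled library. *Hsp90ab1* and *Hspa8* also stepped down at each bin, with log2 ratios of -0.70, -0.61 and -0.26 for *Hsp90ab1* and of -0.80, -0.59 and -0.27 for *Hspa8*. At equal depth *Hspa8* was found in 17.8%, 17.3% and 13.0% of cells over the bins of control 1. Its shares were 21.5%, 15.2% and 16.3% in control 2 and 24.4%, 18.4% and 20% in the labelled library. The share of *Hspa8* thus did not step down at the upper bin of control 2 or of the labelled library. That of *Hsp90ab1* was 82.4%, 73.8% and 77.2% in the labelled library and stepped down at each bin in both controls.

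*Hspa5*, by pooled counts, fell more steeply in the controls. It went from 816 to 776 and 332 CPM along *Lor* in control 1 and from 663 to 557 and 233 CPM in control 2. In the *Vdr* cKO-labelled library it stood at 353, 269 and 295 CPM, so the level was below both controls in the lower and middle bins and between them in the upper bin. The log2 ratios were -1.29, -1.50 and -0.26, and this difference between libraries was not tested, as there is 1 labelled library. It was not seen by the mean of each cell's CPM (-0.15, -0.49 and -0.33) or with each gene counted once per cell (-0.07, -0.28 and -0.27), where the labelled library lay between the controls. At equal depth *Hspa5* was found in 22.7% and 13.5% of cells of the lower and upper bin of control 1. Its shares were 23.7% and 12.2% in control 2 and 16.2% and 12.3% in the labelled library, with 9.33% in the middle bin of the last. *Hspa1b* was the last of the 5, with log2 ratios of -0.59, -0.50 and -1.02. Its common direction held under 6 of 8 settings. Control 1 stood at 0.07 by the mean of each cell's CPM and at 0.01 without the 10 cells with the most counts. At equal depth it was found in 4.26% and 4.55% of cells of the lower and upper bin of control 1. Its shares were 5.84% and 2.52% in control 2 and 5.17% and 3.43% in the labelled library.

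**Figure D4:**
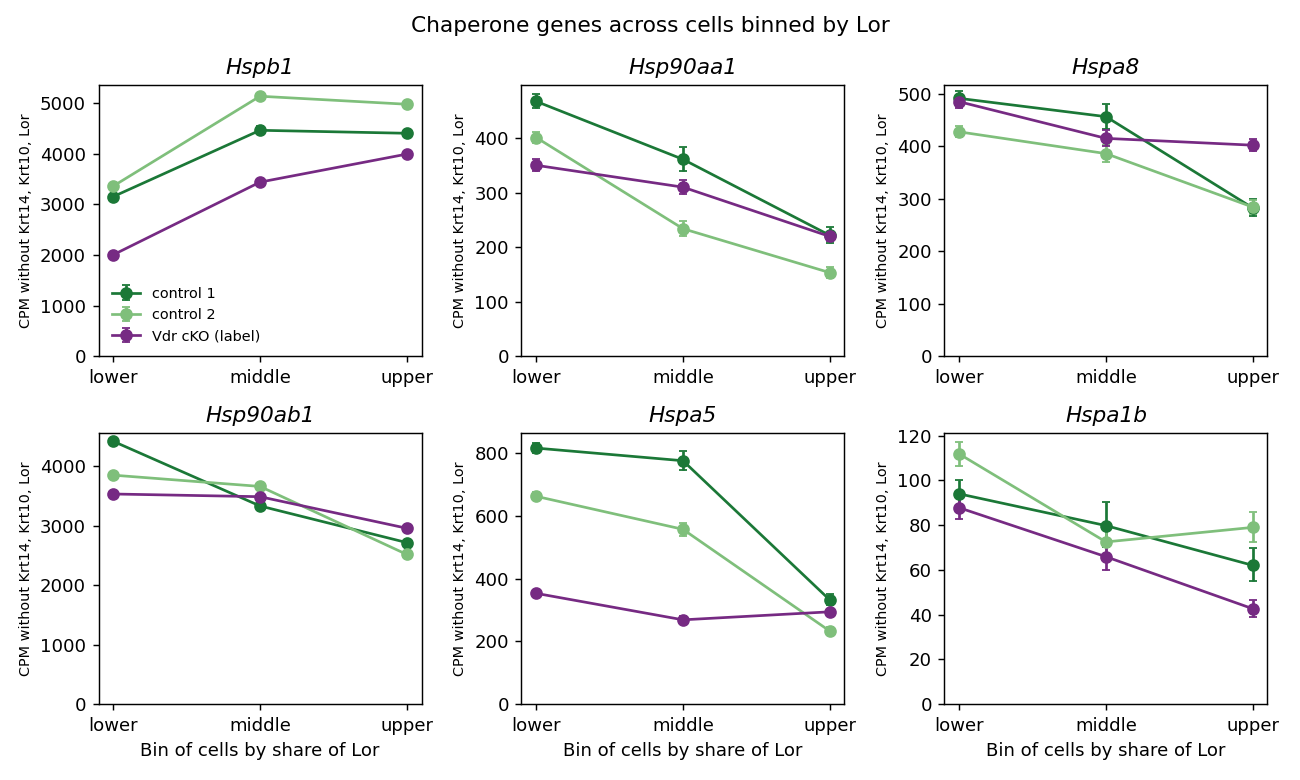
CPM (without the counts of *Krt14*, *Krt10* and *Lor*) of 6 chaperone genes in the lower, middle and upper bin of cells by their share of *Lor*, with lines for the 3 libraries and exact 95% Poisson intervals. *Hspb1* is lowest in the lower bin in each library, *Hsp90aa1* steps down at each bin, and *Hspa5* of the labelled library stays between 269 and 353 CPM.

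The bins by *Lor* also differed in depth. Cells of the lower bin had a median of 6309, 13094 and 6834.5 counts, and those of the upper bin 3777, 3299 and 3701.5. Among cells with at least 2000 counts the count of genes was again 1 higher and 5 lower, and the shares at 1000 counts were as given above. With each gene counted once per cell, *Hsp90ab1* turned to the higher side in all 3 libraries (mean log2 ratio 0.34), *Hspa8* had no common direction (0.22, 0.04 and -0.22), whereas *Hsp90aa1* and *Hspa5* were lower and *Hspb1* higher under each of the 8 settings tried. Counting once per cell divides by the number of detected genes. The median of that number was 423, 844 and 938.5 in the lower bin and 351, 471 and 673.5 in the upper. This tends to raise the upper bin for genes of most cells, such as *Hspb1* and *Hsp90ab1*.

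Along *Krt10*, 5 genes were higher in the upper bin in all 3 libraries and 2 lower, where 28.1% and 19.1% of all genes were. The lower *Krt10* bins held 26540, 35392 and 11433 CPM of *Lor* and the upper bins 5164, 4009 and 12733 CPM. In the controls the lower bin was thus rich in *Lor*, so these bins do not order cells from early to late differentiation. The contrast also differed in the labelled library. *Dnajb1* had log2 ratios of 0.85, 2.65 and 1.44. Its levels in the lower, middle and upper bin were 68.3, 149 and 124 CPM in control 1, 21.3, 88.6 and 138 CPM in control 2, and 96.6, 124 and 265 CPM in the *Vdr* cKO-labelled library. The lower bin was thus the low one in each library, while the middle bin was the highest in control 1. By the mean of each cell's CPM the ratio of control 1 was -0.15, so that no common direction remained. At equal depth it was found in 3.46% and 4.31% of cells of the lower and upper bin of control 1, in 2.07% and 8.14% in control 2, and in 4.45% and 10.7% in the labelled library, so that the intervals of the bins overlapped in control 1.

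*Hspb1* went from 2529 to 4083 CPM between the lower and upper *Krt10* bin of control 1, from 2811 to 4513 CPM in control 2 and from 1285 to 3860 CPM in the labelled library. With each gene counted once per cell it turned to the lower side in all 3 libraries, with a mean log2 ratio of -0.53. The median of detected genes was 339, 404 and 622.5 in the lower bin and 395, 631 and 961.5 in the upper. In that setting this tends to lower the upper bin for a gene of most cells. At equal depth, however, *Hspb1* was found in 62.9% and 77.8% of cells of the lower and upper *Krt10* bin of control 1. Its shares were 61.6% and 88.6% in control 2 and 54.2% and 83.8% in the labelled library. *Hsph1* had log2 ratios of 1.68, 1.68 and 0.31, and *Hspa1a* of 0.07, 1.84 and 0.41. *Hspe1* and *Hspa5* were the 2 lower genes, with log2 ratios of -0.77, -0.66 and -0.86 for *Hspe1* and of -0.35, -0.20 and -0.37 for *Hspa5*. *Hspe1* stood at 74.4 and 43.3 CPM in the lower and upper bin of control 1, at 80.6 and 50.6 CPM in control 2, and at 133 and 73.1 CPM in the labelled library.

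Along *Krt14*, 3 genes were higher in the upper bin in all 3 libraries and 2 lower, where 21.7% and 25% of all genes were. The higher ones were all among the genes counted as constitutive. *Hspa5* went from 498.5 to 1063 CPM between the lower and upper bin of control 1, from 484 to 756 CPM in control 2 and from 275 to 383 CPM in the *Vdr* cKO-labelled library. *Hspa8* had log2 ratios of 1.05, 0.47 and 0.56, and *Hspe1* of 0.77, 0.30 and 1.19. By pooled counts *Hspb1* was lower in the *Krt14*-rich cells, with log2 ratios of -0.73, -0.54 and -0.86, and *Hsp90ab1* slightly so, with -0.05, -0.29 and -0.08. With each gene counted once per cell *Hspb1* had no common direction (0.04, -0.10 and -0.22). At equal depth *Hspb1* was found in 72.2% and 72.7% of cells of the lower and upper bin of control 1. Its shares were 76.8% and 68.3% in control 2 and 72.1% and 66.2% in the labelled library.

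Over the 3 sets of bins, *Hspb1* had its higher pooled levels in *Krt10*-rich and *Lor*-rich cells in all 3 libraries. Its lower pooled level was in *Krt14*-rich cells. Only the direction along *Lor* held with each gene counted once per cell. For a gene of most cells that setting follows the number of detected genes, so it does not decide between these directions. At equal depth the share of cells with *Hspb1* was higher in the upper bin of both *Krt10* and *Lor* in all 3 libraries. By pooled counts *Hspe1* and *Hspa5* had the opposite leaning for *Krt14* and *Krt10*. By the mean of each cell's CPM neither had a common direction along *Krt10* (0.67, -0.43 and -0.42 for *Hspe1*, -0.07, 0.26 and -0.54 for *Hspa5*), nor had *Hspe1* along *Krt14*. At equal depth the share of cells with *Hspa5* in the lower and upper *Krt10* bin was 16.5% and 17.7% in control 1. It was 17.3% and 19.7% in control 2 and 13.5% and 13.1% in the labelled library. By pooled counts the 4 rare inducible genes *Hspa1a*, *Hspa1b*, *Dnajb1* and *Hsph1* had no common direction in the 3 libraries along *Krt14*. Along *Lor* only *Hspa1b* had one, which held under 6 of 8 settings. Their upper-bin counts were as low as 92 (*Hspa1b*, *Krt14*, control 1).

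Basal keratinocyte markers (*Krt14*, *Krt5*, *Krt15*) summed to 4480, 3155 and 11924 CPM and suprabasal markers (*Krt10*, *Krt1*, *Lor*, *Flg2*) to 52560, 50129 and 38934 CPM, so the *Vdr* cKO-labelled library held relatively more basal transcripts. The fold of each chaperone gene was therefore also read inside the 9 bins of cells, 3 for each binning gene. *Dnajb1* lay above both controls in 8 of the 9 bins, with log2 folds of 0.06 to 1.48, and *Hspe1* in 8, with -0.06 to 0.77. *Hspa5* lay below both in 7 of the 9 bins, with -1.32 to 0.06, and was over 2-fold lower than both in 2 of them, the upper *Krt10* and the middle *Lor* bin. *Hspb1* lay below both in 8 bins, with -1.05 to -0.08. *Hspa1b* and *Hsph1* also lay below both in 7 bins, with ranges that crossed 0, and *Hspa1a* was over 2-fold above both in the lower *Krt14* bin. Over all 3916 genes, 19.8% lay above both controls in at least 7 bins and 13.4% in at least 8, 12.4% lay below both in at least 7 and 6.97% in at least 8, and 32.4% were over 2-fold apart from both in at least 1 bin. The 9 bins hold the same cells 3 times. They were cut within each library and were not alike between libraries: the upper *Lor* bins held 44430, 42439 and 27780 CPM of *Lor*, and the lower *Krt10* bins 2240, 1595 and 3684 CPM of *Krt14*. The part of the mix of cells in these folds was not tested.

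Whether the genes were found in the same cells was counted at 1000 counts per cell for all 45 pairs. *Hspa1a* and *Hspa1b* were found together in 5 of 1466, 4 of 1597 and 7 of 2562 cells, which is 2.18, 1.98 and 1.29 times the product of their single shares. In control 1 that is 0.341% of cells, with an exact 95% interval of 0.111% to 0.794% that includes the product, 0.156%. Of the 45 pairs, 22 had a ratio over 1 in all 3 libraries and none had its interval above the product in all 3. The same counts over pairs of all genes were not made, so whether 22 is above the background is not known. Pairs of rare genes rest on few cells, with 0 for *Dnajb1* and *Hspe1* in control 1. A joint excess was not detectable at this depth for any pair in all 3 libraries.

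Of 91 other genes of the chaperone network, 89 were in the matrices and 60 passed the limit of 50 CPM. By the 2-fold rule 1 was lower and none higher in the *Vdr* cKO-labelled library, against 1.15% and 3.88% of all genes. The 1 lower gene was *Fkbp5*, an Hsp90 co-chaperone of steroid receptors that is known as a target of glucocorticoids, at 168, 148 and 44.9 CPM, a log2 fold of -1.79. The median log2 fold of the 60 genes was -0.036, with 20 above both controls, 24 below both and 16 between. Under TMM factors, which lower the folds of all genes, 10 lay above both and 35 below both. Of all genes, 38.4% lay above both and 35.9% below both by CPM, and 25.8% and 48.8% did under TMM factors.

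The sub-lists differed in their counts. Of 9 chaperonin genes, which fold actin and tubulin in the cytosol or act in mitochondria, 7 lay above both controls and none below, where 38.4% and 35.9% of all genes did, with a median log2 fold of 0.19. Under TMM factors 3 lay above and 1 below, where 25.8% and 48.8% of all genes did, with a median of 0.0072, and under median-of-ratios factors the median was -0.024. The one with the highest level, *Cct6a*, was among the other 2, at 312, 183 and 233 CPM. *Hspd1*, named after its values were seen as the partner of *Hspe1* in mitochondria, measured 188, 157 and 193 CPM. Of 4 prefoldin genes, which hand substrates to the chaperonin, 3 lay above both under all 3 scalings, with *Pfdn5* at 333, 260 and 415 CPM.

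Of 14 chaperone and stress genes of the endoplasmic reticulum, 11 lay below both controls and 2 above, with a median log2 fold of -0.27. Of all genes, 35.9% lay below both and 38.4% above both. Under TMM factors 12 lay below and none above, where 48.8% of all genes lay below and 25.8% above. Their most abundant gene, *Hsp90b1*, measured 604, 646 and 523 CPM. *Creld2* and *Manf*, the lowest of that list and chosen after their values were seen, measured 102, 51.8 and 38.5 CPM and 162, 138 and 83.4 CPM. None of the 14 was over 2-fold apart from both controls, and *P4hb*, *Atf4* and *Herpud1*, named after their values were seen, did not lie below both. Among genes of that list under the limit of 50 CPM, *Ddit3*, named after its values were seen, measured 7.98, 3.21 and 27.9 CPM. By CPM *Sil1* also lay above both controls, *Hyou1*, *Dnajb9* and *Hspa13* below both, and *Sdf2l1* between them.

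Among 11 Hsp70 family and co-factor genes none lay above both controls and 5 below, or 9 below under TMM factors, with *Bag1*, a nucleotide exchange factor, at 791, 668 and 545 CPM. Of 7 J-domain genes 1 lay above and 4 below, or 6 below under TMM factors, with *Dnaja2* at 223, 240.0 and 225 CPM. Of 13 Hsp90 co-chaperones 6 lay above and 3 below, and under TMM factors 3 above and 6 below, with *Cdc37*, the adaptor for kinases, at 251, 254 and 263 CPM. The shares of all genes beside the counts of these lists were 38.4% above and 35.9% below by CPM. Under TMM factors they were 25.8% and 48.8%. The 1 small heat shock protein that passed, *Hspb8*, measured 284, 422 and 384 CPM, and *Hsbp1*, which binds Hsf1, measured 138, 176 and 191 CPM.

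**Figure D5:**
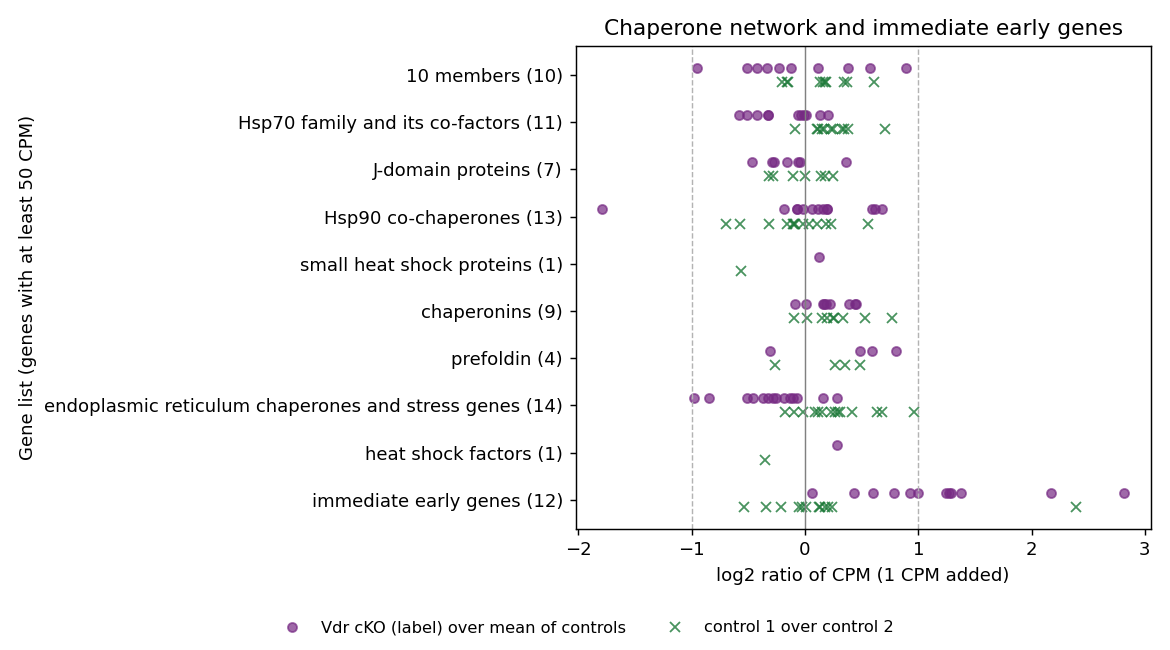
Log2 ratio of CPM, 1 point for each gene with at least 50 CPM, for the 10 chaperone genes, the sub-lists of the chaperone network and the immediate early genes; circles give the *Vdr* cKO-labelled library over the mean of the controls and crosses control 1 over control 2, and dashed lines mark 2-fold. No circle of the 10 genes passes the dashed lines, *Fkbp5* stands at -1.79, and 6 of the 12 circles of the immediate early genes lie right of the upper line.

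Immediate early genes, which are switched on within minutes by cell handling and other stimuli, were read beside the chaperones. Their 13 genes summed to 2725, 2596 and 5515 CPM, a log2 fold of 1.05. Of the 12 that passed the limit, 6 were over 2-fold higher than both controls in the *Vdr* cKO-labelled library, and 5 and 4 were under TMM and median-of-ratios factors. The 6 genes by CPM were *Fos* (424, 358 and 948 CPM), *Fosb* (50.7, 59.0 and 144 CPM), *Jun* (244, 253 and 1121 CPM), *Junb* (175, 178 and 432 CPM), *Atf3* (26.6, 4.25 and 115 CPM) and *Dusp1* (152, 139 and 345 CPM). By CPM 3.88% of all genes were over 2-fold higher than both controls. The 6 inducible chaperone genes had no member past the same rule. At so low a share of all genes, this does not set a list of 6 genes apart from the background. Whether the immediate early genes have a part in the *Dnajb1* difference was not tested.

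Markers of cells other than keratinocytes were low. Summed levels in the 3 libraries were 34.8, 15.9 and 57.9 CPM for 5 T cell genes, 139, 212 and 279 CPM for 4 genes of antigen-presenting cells, and 3.72, 3.31 and 37.9 CPM for 3 melanocyte genes. They were 5.85, 0.662 and 3.62 CPM for 3 fibroblast genes, 4.15, 1.39 and 0.969 CPM for 2 endothelial genes, and 104, 463 and 62.5 CPM for 4 globin genes. *Cd3d* and *Mlana* were at 0 in control 1 and *Col3a1* at 0 in the labelled library. The part of these cells in the chaperone values was not tested.

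Genes whose level followed the summed inducible chaperone genes over the 9 bins were sought among all genes with at least 50 CPM. Among the 5 with the highest mean Pearson r of the 3 libraries were *Klk5* (0.975), *Orm1* (0.975), *Pla2g2f* (0.966) and *Fam129b* (0.948). The sum is mostly *Hspb1*, and the 9 bins hold the same cells 3 times, so these values describe the bins and carry no test.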

How the data were processed

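Single-cell RNA-seq had been performed by the authors with the RNAdia 2.0 kit on the Nadia instrument, and the submitters' processing notes name the build mm10. The authors deposited counts per gene and barcode as 1 matrix for each library, without normalization; the study's methods name Seurat, which works on count matrices, for alignment, and the read aligner, annotation and collapse of PCR copies are not given in the sources used here, so the counts may include copies.

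Barcodes with 200 or more detected genes and no more than 20% mitochondrial counts were kept as cells. Their counts were pooled to CPM, and log2 folds compare the *Vdr* cKO-labelled library with the mean control level after adding 1 CPM. Genes reaching 50 CPM in any library were counted when over 2-fold above or below both controls. The 3 bins of a library held equal numbers of cells ranked by the share of *Krt14*, *Krt10* or *Lor*; in the controls most cells had no *Krt14* and were the lower bin, and the rest was split at its median. Shares used cells thinned to 1000 counts. Intervals are exact at 95%, cover counting error only, and no p-value was computed. No doublet caller was used; leaving out the 5% of cells with the most counts was an alternative.

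The genes were taken by name, without a measured value, but the set and the lists were chosen with earlier results of these data known. Named genes were the 10 genes, in each network sub-list the gene with the highest mean CPM and those over 2-fold apart, the 5 genes most like the inducible sum over the bins (1 is not reported here), the binning genes, *Vdr*, and immediate early genes over 2-fold apart. Python 3.11.15, numpy 2.4.6, scipy 1.17.1, pandas 2.3.3, matplotlib 3.10.9, and for scaling factors edgeR 4.0.16 and DESeq2 1.42.0 in R 4.3.3 were used. The procedures were tested on simulated data with counting error alone. Those data had no added spread between libraries and no copies of molecules. They do not show how the 2-fold rule or the intervals behave where these are present.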

Additional observations from a re-analysis of the deposited data

Results flagged for a closer look

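In 6 cases both controls leaned one way between the upper and lower bin of cells and the *Vdr* cKO-labelled library the other way. These differences were not tested, and 18.2%, 21.1% and 17.4% of all genes had such a pattern for *Krt14*, *Krt10* and *Lor*. Along *Krt14*, the log2 ratio of *Hspa1b* was 0.05 in the labelled library against -1.31 and -0.68 in control 1 and control 2. That of *Hsph1* was 0.25 against -0.60 and -0.33, and that of *Hsp90aa1* was 0.11 against -0.32 and -0.29. Along *Krt10*, *Hspa1b* had -0.22 against 1.53 and 0.99, and *Hsp90aa1* had -0.70 against 0.40 and 0.22. Along *Lor*, *Hspa1a* had 0.23 against -0.15 and -1.15. All 6 cases concern inducible genes, and *Hspa1a*, *Hspa1b* and *Hsph1* were each found in no more than 5.31% of cells at equal depth.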

How the results depend on the processing

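The median log2 fold of the 10 genes, -0.18, was -0.36 with TMM and -0.39 with median-of-ratios factors, -0.026 without the 5% of cells with the most counts, 0.032 without the 10 cells with the most counts of each gene (chosen after seeing the data), and -0.22 to -0.053 with 1 control left out. Leaving out 10 cells took a larger part of the counts of each gene from the controls, which by itself raises the folds. The inducible minus constitutive difference, -0.28, was 0.081 when the CPM of single cells was averaged, 0.17 with each gene counted once per cell, 0.023 and -0.03 without the deepest and the 10 top cells, and -0.31 to -0.21 with 1 control left out. The count of chaperone genes over 2-fold apart, 0, was 0 to 1 with 1 control left out (*Hspa5* without control 2) and 2 over 1.5-fold (*Dnajb1*, *Hspa5*). The count over all genes, 197, was 358 to 389 with 1 control left out, 829 at 10 CPM, 2092 without a limit and 557 over 1.5-fold. The network count, 1, was 2 with each gene counted once per cell, 2 with either control left out, 5 at 10 CPM, 8 without a limit and 2 over 1.5-fold. The 7 higher shares were 4 with 200 genes drawn per cell, where the share of all genes was not counted. The joint detection ratio of *Hspa1a* and *Hspa1b*, 1.82, was 1.18 in that draw and 2.66 without thinning. In bins, the 2 lower genes along *Krt14* were 1 with 2 bins, 4 in quintiles and 1 by the averaged CPM of cells. Along *Krt10*, 1 gene (*Dnajb1*) was over 2-fold in quintiles, where 9.98% of all genes were. With 3 bins, 3 genes were over 1.5-fold, where 15.8% of all genes were. The 5 higher genes were 3 and the 2 lower 1 by the averaged CPM of cells, and the lower 4 with each gene counted once per cell. Along *Lor*, 1 gene (*Hsp90aa1*) was over 1.5-fold, where 12.8% of all genes were. The 1 higher gene was 2 by the averaged CPM of cells, and 2 with 3 lower, in place of 5, with each gene counted once per cell. The causes were not tested. Of 130 other folds of single genes 122 kept their sign, and of 210 bin ratios 196. The log2 fold ranged from 0.31 to 1.29 for *Dnajb1*, from 0.30 to 0.97 for *Hspe1* and from -1.16 to -0.67 for *Hspa5*. No paired analysis was possible because the groups share only replicate number 1.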
